A study of Mus musculus with 3 samples.

Results

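Polycomb repressive complex 2 (PRC2) is built from core and accessory subunits, and the 10 genes that encode those examined here were measured in single cells of mouse cerebella that carried a conditional deletion of *Eed*. The members are the core subunit genes *Ezh2*, *Ezh1*, *Eed*, *Suz12*, *Rbbp4* and *Rbbp7* and the accessory subunit genes *Jarid2*, *Mtf2*, *Phf19* and *Aebp2*. They were chosen by symbol, all 10 were listed among the 16181 genes of the tables, and together they held 5571 of 3693051 unique molecular identifiers (UMIs, each of which stands for 1 captured RNA molecule). The libraries came from 3 Math1-Cre/Eed fl/fl (*Eed* cKO) mice at postnatal day 7, untreated, with 1 Drop-seq library made from part of the cerebellum of each mouse. Math1 is another name for *Atoh1*, so Cre is expressed in cerebellar granule neuron progenitors (CGNPs) and deletes the floxed *Eed* alleles in them and in the granule neurons (CGNs) that they form, while cell types that never express *Atoh1* keep both alleles. No mouse without Cre was analysed here, so no value below compares genotypes, and every comparison is between cells of the same 3 mice.

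PRC2 methylates histone H3 at lysine 27, a mark of repressed genes. EZH2 and EZH1 are alternative catalytic subunits, of which EZH2 is typical of dividing cells and EZH1 of cells that have left the cycle. EED binds the methylated histone and is needed for catalysis, SUZ12 holds the complex together, and RBBP4 and RBBP7 are histone-binding proteins that also serve the NuRD, Sin3 and CAF-1 complexes. MTF2 and PHF19 belong to one form of the complex and JARID2 and AEBP2 to another, and all help to bring PRC2 to its targets. In the cerebellum, CGNPs divide in the external granule layer after birth and then leave the cycle and migrate inward.

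After filters on depth and mitochondrial transcripts, 918, 547 and 908 cells of mice 1, 2 and 3 remained, with 3081202 UMIs and a median of 919.5, 857 and 1408 UMIs per cell. No cell barcode was shared between libraries, and no doublet caller was run, so doublets may remain. Clusters named from marker genes gave 1173 CGNP/CGN-like cells (656 proliferating CGNP-like and 517 differentiating CGNP/CGN-like), 78 myoid-like cells, which were assigned to neither side, and 938 cells of 8 types outside the *Atoh1* lineage. *Atoh1* stood at 108 ± 29 counts per 1000000 UMIs (CPM; mean and SD of 3 mice) among CGNP/CGN-like cells and 3.78 ± 3.41 CPM outside the lineage, and the interneuron gene *Pax2* at 9.85 ± 1.23 and 262 ± 14 CPM. A cluster of 184 cells, 130 of them from mouse 3, carried 6 markers of differentiating CGNP/CGN but had the Purkinje cell markers *Syt4*, *Pcp4* and *Calb1* among its leading genes, so it stayed unnamed and entered no comparison. The globin gene *Hbb-bs*, a marker of red cells, had a level of 1022 ± 475 CPM within the CGNP/CGN-like class and 1142 ± 1719 CPM outside the lineage, with median depths of 1026 and 968.5 UMIs per cell, and the part of red cell RNA in the results was not tested. The members were not used in the clustering. Levels below are CPM of UMIs summed per mouse and cell group, so a lower level in a mixed group cannot be told apart from a lower share of cells that express the gene. Tests are edgeR's quasi-likelihood test on these sums, with an adjusted p under 0.05 taken as called, and log2 fold changes are given with their standard error (SE).

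*Eed*, the gene targeted by Cre, was measured first. Its UMIs were few, 114 in all cells. In CGNP/CGN-like cells it stood at 30.5, 14.1 and 22.4 CPM in mice 1, 2 and 3, from 17, 5 and 13 UMIs. In cells outside the lineage it stood at 69.0, 79.7 and 45.5 CPM, from 25, 12 and 29 UMIs. All 3 values in the lineage were below all 3 values outside it, and the fitted difference was -1.39 (log2, SE 0.38, adjusted p = 0.019). Drop-seq reads the 3′ end of transcripts and the exons removed from the floxed allele are not given in the sources used here, so these UMIs do not check the deletion. Mice 1 and 2 each decided the call, since the difference was -1.57 (adjusted p = 0.099) without mouse 1 and -1.07 (adjusted p = 0.17) without mouse 2. It was also lost at the coarser clustering resolution of 0.4 (-1.01, adjusted p = 0.072) and in cells with at least 1000 UMIs (-1.13, adjusted p = 0.17).

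Of the *Eed* UMIs in the lineage, 30 lay in proliferating CGNP-like cells, at 40.9, 13.1 and 35.4 CPM, and 5 in differentiating CGNP/CGN-like cells, at 10.53, 15.87 and 4.12 CPM. The classes overlapped, with mouse 2 higher in differentiating cells, and *Eed* did not pass the filter on low counts in that comparison. The lowest mean level of *Eed* among the 11 named types was in differentiating CGNP/CGN-like cells (10.2 ± 5.9 CPM), followed by myoid-like cells (20.4 ± 18.6 CPM, 4 UMIs) and proliferating CGNP-like cells (29.8 ± 14.7 CPM). Interneuron progenitor-like and interneuron-like cells stood at 67.2 ± 30.3 and 78.0 ± 70.5 CPM. Each neighbour in this order overlapped the next within 1 SD.

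The difference between lineages was also taken by cycle state. Cells were called cycling or low-cycle from their UMIs of S and G2/M phase genes after each cell was thinned to 500 UMIs. With at least 3 such UMIs against 0, *Eed* did not pass the filter on low counts and was tested in neither state. Cell cycle phases called by Seurat on all UMIs gave larger low-cycle groups. In these *Eed* held 7 UMIs in CGNP/CGN-like cells (11.97 ± 7.53 CPM), with 4, 2 and 1 in mice 1, 2 and 3. Outside the lineage it held 36 UMIs (61.4 ± 30.5 CPM). The difference was -2.27 (log2, SE 0.62, adjusted p = 0.014), where 13.2% of genes were called. In cycling cells by the same phases the difference was -1.06 (SE 0.50, adjusted p = 0.24). A wider split by list UMIs, at least 6 against at most 2 and chosen after the data were seen, gave -2.40 (SE 0.68, adjusted p = 0.016) in low-cycle cells and -1.28 (SE 0.52, adjusted p = 0.17) in cycling cells. Under both definitions *Eed* passed the filter on low counts through the other groups of the fit. The size of each low-cycle difference thus rests on few UMIs in the lineage. In low-cycle cells of the wider split *Eed* was at 18.2, 9.1 and 5.3 CPM in the lineage, from 3, 1 and 1 UMIs. Outside it the levels were 61.0, 100.4 and 42.2 CPM, from 10, 8 and 13 UMIs. The change of the lineage difference with cycle state was itself not called, at 1.12 (SE 0.88, adjusted p = 0.63) for the wider split and 1.22 (SE 0.82, adjusted p = 0.61) for the Seurat phases.

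**Figure D1:**
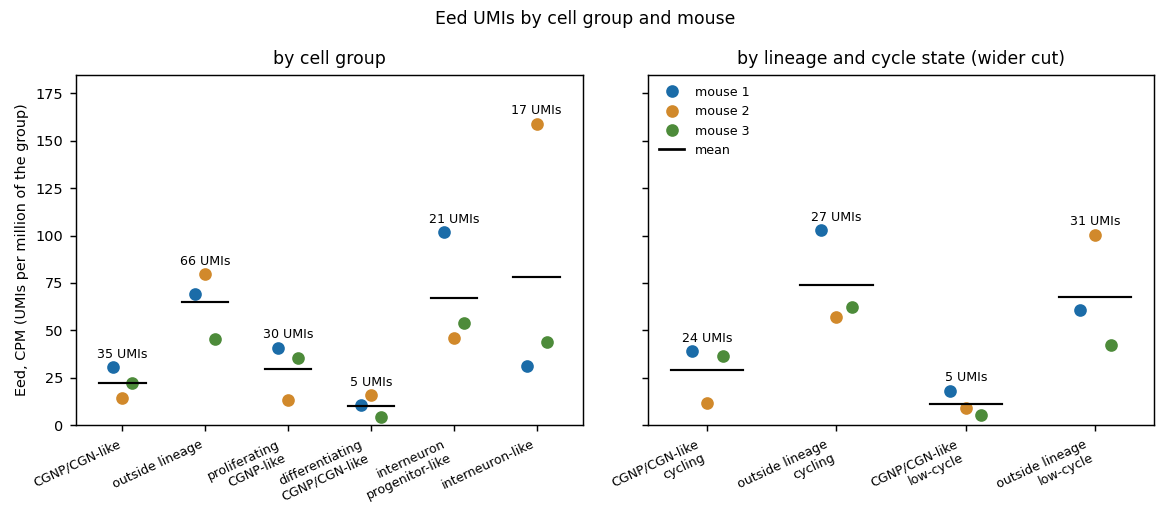
Level of *Eed* in CPM (y axis) by cell group (left) and by lineage and cycle state under the wider split (right), with 1 point per mouse, a bar at the mean of 3 mice and the number of UMIs above each group. In low-cycle CGNP/CGN-like cells all 3 mice lie between 5.3 and 18.2 CPM, from 3, 1 and 1 UMIs. This is below the 42.2 to 100.4 CPM of low-cycle cells outside the lineage, from 10, 8 and 13 UMIs.

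The other members differed less between CGNP/CGN-like cells and cells outside the lineage. Of the 9 members that passed the filter on low counts, *Eed* alone was called, 1 of 9 where 12.9% of all 7592 genes tested were called. *Phf19*, an accessory subunit with 9 UMIs in all cells and none in mouse 2, was not tested. *Ezh2* stood at 571, 488 and 490 CPM in the lineage and 348, 312 and 436 CPM outside it, a difference of 0.48 (SE 0.19, adjusted p = 0.13), with no overlap between the groups. *Rbbp4* was steady across mice, at 329, 324 and 330 CPM in the lineage and 248, 259 and 256 CPM outside it, and differed by 0.36 (SE 0.19, adjusted p = 0.26). Both were higher in the lineage in 3 of 3 mice.

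Since both sums of a mouse come from 1 animal, the fit with mice as a replicate block bears on these values. With it 20.2% of all genes and 4 of the 9 members were called. They were *Eed* (-1.38, adjusted p = 0.0064), *Ezh2* (0.47, SE 0.12, adjusted p = 0.0094), *Suz12* (0.54, SE 0.17, adjusted p = 0.031) and *Rbbp4* (0.36, SE 0.12, adjusted p = 0.045). *Suz12* varied between mice, at 278, 127 and 129 CPM in the lineage and 193, 86.3 and 86.2 CPM outside it. Mouse 1 was thus higher in both groups, and the level in the lineage was above that outside it within each mouse.

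The remaining members were not called in either fit. *Rbbp7* differed by 0.42 (SE 0.21, adjusted p = 0.25), *Mtf2* by 0.11 (SE 0.27, adjusted p = 0.86), *Aebp2* by 0.39 (SE 0.42, adjusted p = 0.65), *Jarid2* by -0.48 (SE 0.32, adjusted p = 0.41) and *Ezh1* by -0.57 (SE 0.42, adjusted p = 0.46). The median over the 9 members tested was 0.36, beside 0.020 over all genes tested. It depended on the cells outside the lineage, with 8 members tested in each of 2 subsets. It was -0.18 against interneuron-like and interneuron progenitor-like cells alone, beside 0.018 over all genes. Against the glial, vascular and myeloid types alone it was 0.53, beside 0.022. *Ezh1* held 47 UMIs in the lineage and 49 outside it, and made up 5.76% ± 0.35 of the *Ezh1* and *Ezh2* UMIs of CGNP/CGN-like cells and 12.9% ± 6.8 of those outside the lineage. Mouse 3 went the other way, with 5.94% in the lineage and 5.12% outside it. Among single types the share was highest in myeloid-like (41.7% ± 38.2) and endothelial-like cells (35% ± 40.9), from 6 *Ezh1* UMIs in each, and stood at 20.5% ± 12.3 in interneuron-like and 6.58% ± 5.38 in interneuron progenitor-like cells.

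Cells outside the lineage are a mixture, and the values for *Ezh2* and *Rbbp4* depended on which of them were used. Against interneuron-like and interneuron progenitor-like cells alone, *Ezh2* differed by 0.05 (adjusted p = 0.94) and *Rbbp4* by -0.10 (adjusted p = 0.87). Against the glial, vascular and myeloid types alone, *Ezh2* was higher in the lineage by 1.03 (adjusted p = 0.00077) and *Rbbp4* by 0.96 (adjusted p = 0.0031), where 28.9% of all genes were called. Both of these choices were made after the data were seen. *Eed* was called in each, at -1.51 (adjusted p = 0.031) against the interneuron classes and -1.25 (adjusted p = 0.031) against the others.

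Levels across the 11 named types were compared in 1 test of any difference. The 5 members that passed the filter were *Ezh2* (adjusted p = 2.1e-07), *Rbbp7* (0.00011), *Rbbp4* (0.0049), *Mtf2* (0.040) and *Suz12* (0.099), so 4 of 5 were called by edgeR where 73.6% of 1998 genes were called. With mice as a replicate block *Suz12* was called too (adjusted p = 0.0019; 83.3% of genes), and the call of *Rbbp4* was lost without mouse 1 (0.19). The call of *Mtf2* was lost in 5 of 10 refits, without mouse 2 (adjusted p = 0.055) or mouse 3 (0.11), with DESeq2 (0.053), at resolution 0.4 (0.073) and with at least 1000 UMIs per cell (0.088). DESeq2 called 3 of the 5 members, where it called 75.5% of genes. *Ezh2* was highest in interneuron progenitor-like cells (583, 828 and 882 CPM) and proliferating CGNP-like cells (676, 559 and 591 CPM). It was lowest in myeloid-like cells, the microglia and macrophages of the tissue, at 98.2 ± 45.5 CPM from 5 UMIs.

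In the order of mean *Ezh2* levels, the step from proliferating CGNP-like cells down to differentiating CGNP/CGN-like cells (359 ± 9 CPM) was the only 1 of 10 neighbouring steps that exceeded 1 SD on each side. The other types stood lower, with oligodendrocyte-like cells at 301 ± 130, interneuron-like cells at 271 ± 49, astrocyte-like cells at 237 ± 48 and endothelial-like cells at 174 ± 149 CPM. For each of the other 9 members all 10 neighbouring steps overlapped.

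*Rbbp4* was highest in the interneuron progenitor-like (382 ± 39 CPM), proliferating CGNP-like (344 ± 11 CPM) and interneuron-like cells (340 ± 97 CPM) and stood at 125 ± 14 CPM in astrocyte-like and 85.6 ± 82.3 CPM in endothelial-like cells. *Rbbp7*, its close relative, was ordered differently. It was highest in proliferating CGNP-like (417 ± 69 CPM) and endothelial-like cells (409 ± 118 CPM) and lowest in astrocyte-like cells (92.9 ± 49.3 CPM), with differentiating CGNP/CGN-like cells next at 157 ± 40 CPM. *Mtf2* was highest in interneuron-like cells (316 ± 63 CPM) and differentiating CGNP/CGN-like cells (262 ± 61 CPM) and lowest in oligodendrocyte-like cells (102 ± 5 CPM).

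The 5 members too low for that test are given by their UMIs. *Jarid2* stood at 150 ± 68 CPM in interneuron-like cells, from 46 UMIs, and at 86.2 ± 42.6 CPM in differentiating CGNP/CGN-like and 45.4 ± 7.1 CPM in proliferating CGNP-like cells. *Ezh1* stood at 174 ± 215 CPM in myeloid-like cells, from 6 UMIs, and at 69.3 ± 41.4 CPM in interneuron-like cells. *Aebp2* held 72 UMIs over the 11 types and stood at 61.3 ± 56.1 CPM in vascular fibroblast-like cells. *Phf19* had UMIs in 5 of the types, with 3 in oligodendrocyte-like, 2 in myeloid-like and 2 in proliferating CGNP-like cells. The SD was near the mean or above it in many of these small groups, and no order is read from them.

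**Figure D2:**
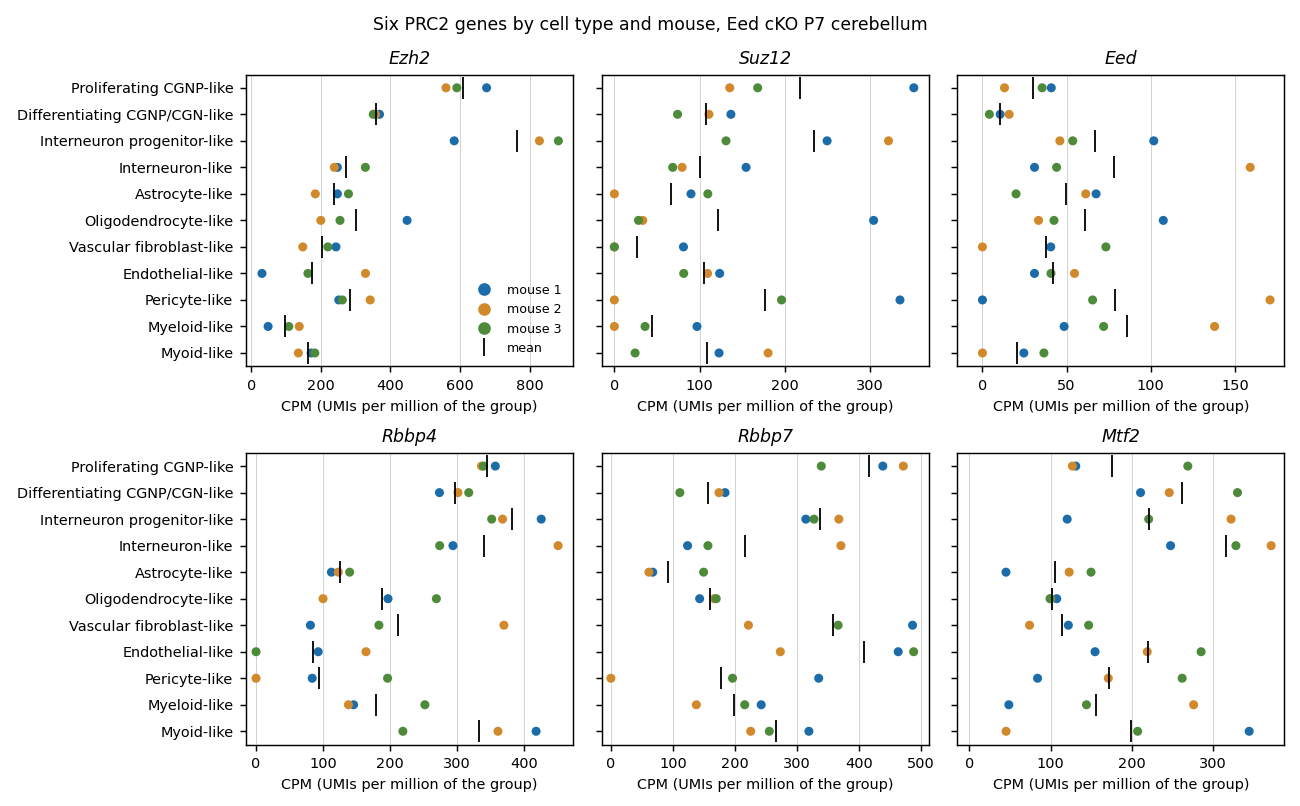
Levels of 6 members in CPM (x axis) in the 11 named cell types (rows), with 1 point per mouse and a vertical tick at the mean of 3 mice. *Ezh2* is highest in interneuron progenitor-like and proliferating CGNP-like cells, and the points of *Eed* in types outside the lineage spread widely between mice.

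The genes whose levels went most like a member's over the 33 sums of 11 types and 3 mice were found by Pearson correlation of log2(CPM + 20). For *Ezh2* they were *Dnajc9* (r = 0.75), *Ccnd2* (0.74), which encodes a cyclin of G1 phase, and *Spc24* (0.72), which encodes a kinetochore subunit. For *Suz12* they were *Lmnb1* (0.74), which encodes lamin B1, *1500016L03Rik* (0.71) and *Gtf2a2* (0.70). For *Rbbp4* they were *Ddx6* (0.79), *Celf2* (0.76) and *Cnot3* (0.75). For *Rbbp7* they were *Rpl6* (0.76), *Raly* (0.75) and *Rps20* (0.73), and for *Mtf2* they were *Top2b* (0.61), *Scrt1* (0.59) and *Cfdp1* (0.59). These values are descriptions over sums that share libraries and differ in depth, and the 5 members with fewer UMIs are left out. Among the members themselves the highest were 0.45 for *Suz12* with *Rbbp7* and 0.39 for *Ezh2* with *Suz12*.

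In the GENCODE M21 annotation of GRCm38, *Ezh2* spans chr6:47530139-47595341 (minus strand), *Ezh1* chr11:101191115-101226463 (minus) and *Eed* chr7:89954654-89980983 (minus). *Suz12* spans chr11:79993106-80034123 (plus), *Rbbp4* chr4:129307100-129335370 (minus) and *Rbbp7* chrX:162760402-162779092 (plus). The accessory genes are *Jarid2* at chr13:44729474-44921643 (plus), *Mtf2* at chr5:108065674-108109004 (plus), *Phf19* at chr2:34893757-34914026 (minus) and *Aebp2* at chr6:140622663-140678472 (plus). Genes on the opposite strand that are in the tables overlap 5 of them, and whether counting used strand is not given in the sources used here. They are *Gm26625* at *Ezh2* (9 UMIs), *Gm26563* at *Suz12* (24), *Sync* (21) and *Gm26722* (55) at *Rbbp4*, *Txlng* at *Rbbp7* (99) and *Tmed5* at *Mtf2* (268), so reads of these pairs could not be told apart without strand.

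Within the lineage, proliferating CGNP-like cells were compared with differentiating CGNP/CGN-like cells. *Rbbp7*, *Suz12* and *Ezh2* were higher in proliferating cells, 3 of the 6 members tested, where 28.1% of 4891 genes were called in either direction and 13.8% as higher. *Rbbp7* stood at 439, 472 and 340 CPM in proliferating cells and 184, 175 and 111 CPM in differentiating cells, and was higher by 1.43 (log2, SE 0.24, adjusted p = 0.00018). *Ezh2* stood at 676, 559 and 591 CPM in proliferating cells and 369, 357 and 351 CPM in differentiating cells, and was higher by 0.76 (SE 0.20, adjusted p = 0.0062). For both genes every proliferating value lay above every differentiating value. *Hbb-bs* stood at 1301 ± 957 CPM in proliferating and 626 ± 464 CPM in differentiating cells and was among the leading genes of 1 proliferating cluster, and its part in these differences was not tested.

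*Suz12* stood at 352, 136 and 168 CPM in proliferating cells and 137, 111 and 74.2 CPM in differentiating cells. It was higher in 3 of 3 mice, although the groups overlapped because mouse 2 was low in proliferating cells and mouse 1 high in both classes, and the difference was 1.07 (SE 0.34, adjusted p = 0.023). Without mouse 1 the differences of *Suz12* and *Ezh2* were 0.77 (adjusted p = 0.15) and 0.68 (adjusted p = 0.077), and *Rbbp7* alone stayed called. With at least 1000 UMIs per cell both calls were lost likewise (0.99, adjusted p = 0.10, and 0.57, adjusted p = 0.084).

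*Rbbp4* did not follow *Rbbp7*, at 357, 337 and 340 CPM in proliferating cells and 274, 301 and 318 CPM in differentiating cells, a difference of 0.20 (SE 0.20, adjusted p = 0.50). The accessory subunit genes *Jarid2* and *Mtf2* lay on the other side. *Jarid2* stood at 43.6, 39.3 and 53.2 CPM in proliferating cells and 79.0, 47.6 and 132 CPM in differentiating cells, a difference of -1.003 (SE 0.37, adjusted p = 0.052). *Mtf2* stood at 131, 127 and 269 CPM in proliferating cells and 211, 246 and 330 CPM in differentiating cells, a difference of -0.59 (SE 0.29, adjusted p = 0.14). Each of the 3 mice had less of both in its proliferating cells. With mice as a replicate block, in which 39.7% of genes were called, *Jarid2* (-0.97, adjusted p = 0.014) and *Mtf2* (-0.56, adjusted p = 0.0093) were called as lower, so that 5 of 6 members were called. *Eed*, *Ezh1*, *Aebp2* and *Phf19* were too low to test.

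**Figure D3:**
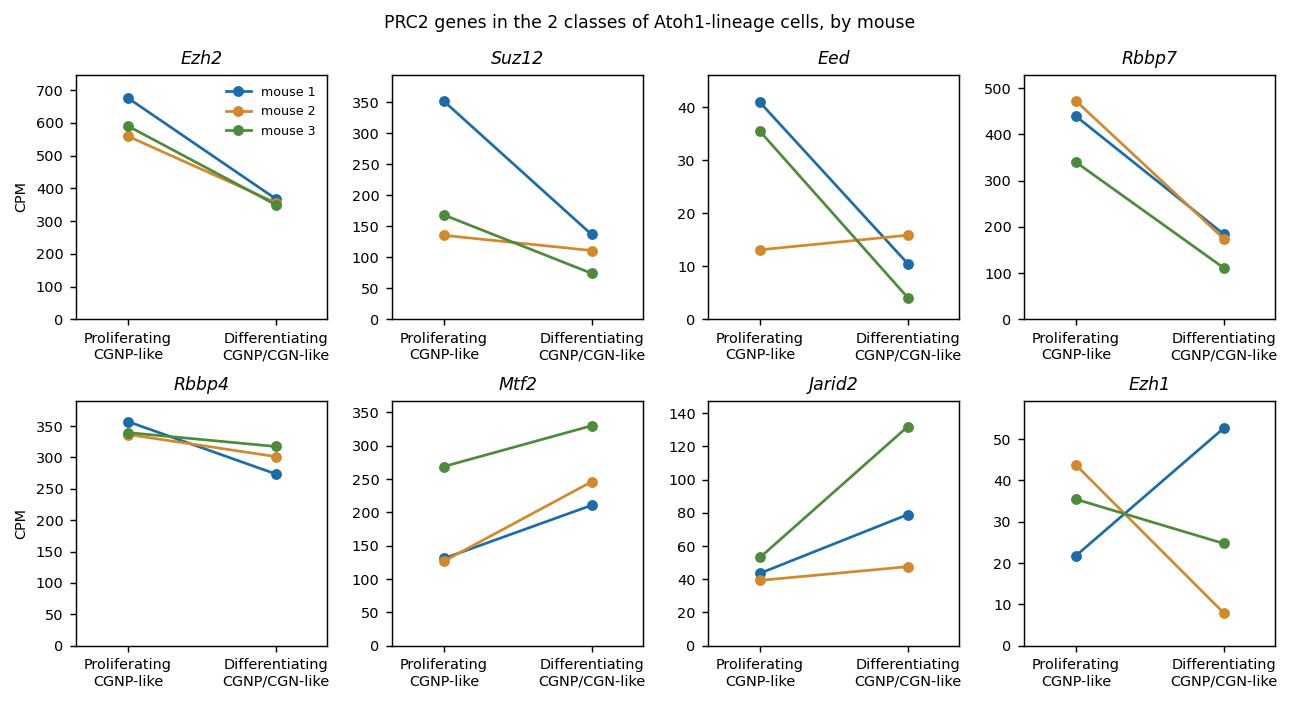
Levels of 8 members in CPM (y axis, from 0) in proliferating CGNP-like and differentiating CGNP/CGN-like cells, with the 2 points of a mouse joined by a line. The lines of *Ezh2*, *Suz12* and *Rbbp7* fall in all 3 mice and those of *Jarid2* and *Mtf2* rise in all 3.

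Sequences before the RefSeq starts of the genes called in this comparison are shown, with those of *Jarid2* and *Mtf2*, which lay on the other side. They come from RefSeq promoter windows on GRCm38.p6, which held all 10 members in 14 windows, and are read 5′ to 3′ along the gene. Bases within the annotated exons of the gene are left out, so the *Ezh2* stretch runs from 153 to 29 bases before its RefSeq start. The stretches of *Ezh2* and *Jarid2* lie inside the wider spans given above. Capitals mark matches on either strand to an E2F motif (TTTCCCGC, TTTCGCGC, TTTGCCGC or TTTGGCGC), a CHR motif (TTTGAA or TTCGAA) or a CCAAT box, motifs known from promoters of cell cycle genes.
*Ezh2* (chr6:47595059-47595183, minus strand): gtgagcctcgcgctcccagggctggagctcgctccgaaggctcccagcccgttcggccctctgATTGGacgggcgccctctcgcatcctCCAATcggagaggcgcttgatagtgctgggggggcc
*Suz12* (chr11:79992856-79993105, plus strand): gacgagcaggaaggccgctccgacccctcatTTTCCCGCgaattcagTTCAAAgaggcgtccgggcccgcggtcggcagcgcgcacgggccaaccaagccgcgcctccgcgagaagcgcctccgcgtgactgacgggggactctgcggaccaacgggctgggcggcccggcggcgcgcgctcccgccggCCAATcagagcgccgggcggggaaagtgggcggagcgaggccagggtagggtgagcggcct
*Rbbp7* (chrX:162760122-162760371, plus strand): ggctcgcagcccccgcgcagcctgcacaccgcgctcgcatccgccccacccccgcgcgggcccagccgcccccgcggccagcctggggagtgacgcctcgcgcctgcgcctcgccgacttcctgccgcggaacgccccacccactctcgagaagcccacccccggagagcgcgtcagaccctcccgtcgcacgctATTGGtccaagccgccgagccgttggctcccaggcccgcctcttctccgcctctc
*Jarid2* (chr13:44730524-44730773, plus strand): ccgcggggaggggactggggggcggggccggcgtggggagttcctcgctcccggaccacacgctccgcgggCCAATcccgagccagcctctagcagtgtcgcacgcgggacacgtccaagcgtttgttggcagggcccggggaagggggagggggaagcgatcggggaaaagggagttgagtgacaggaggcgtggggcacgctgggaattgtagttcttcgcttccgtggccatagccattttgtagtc
*Mtf2* (chr5:108065424-108065673, plus strand): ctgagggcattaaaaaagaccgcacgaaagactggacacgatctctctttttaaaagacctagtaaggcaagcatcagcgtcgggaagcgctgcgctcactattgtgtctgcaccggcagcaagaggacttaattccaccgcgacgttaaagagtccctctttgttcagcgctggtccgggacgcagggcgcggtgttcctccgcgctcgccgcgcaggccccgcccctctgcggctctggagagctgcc

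The *Suz12* window held 1 E2F match, which starts 219 bases before the start, 1 CHR match and 1 CCAAT box. The *Ezh2* window of 250 bases held 3 CCAAT boxes, of which the stretch shown holds 2, and no E2F or CHR match. The *Rbbp7* window held 1 CCAAT box, 55 bases before the start. The *Jarid2* window shown held 1 CCAAT box, 179 bases before the start, and its other window none of the 3 motifs. The *Mtf2* window shown held none of the 3 motifs, while its other window, at chr5:108077915-108078164, held 1 CHR match and 1 CCAAT box. Of the 14 windows of the members, 2 held an E2F match (*Suz12* and *Phf19*), 4 a CHR match and 7 a CCAAT box. Among 32851 promoter windows of the same length, 1.86% held an E2F match, 17.1% a CHR match and 33.8% a CCAAT box. A match describes the letters only, and binding was not measured.

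The same genes were compared by cycle state, taken from each cell's own S and G2/M phase UMIs. In CGNP/CGN-like cells 739 were cycling, 594 of them proliferating and 145 differentiating by cluster, and 95 were low-cycle, 14 proliferating and 81 differentiating. Cycle state and cluster thus largely coincided and were not separated in this test, and low-cycle cells were shallower (median 767 UMIs, against 1119). None of the 6 members tested was called by edgeR, where 7.41% of 3227 genes were called. DESeq2 also called 0, and 1 member, *Rbbp7*, had an unadjusted p under 0.05. *Rbbp7* stood at 426, 441 and 292 CPM in cycling cells and 244, 97.2 and 190 CPM in low-cycle cells, a difference of 1.05 (SE 0.38, adjusted p = 0.10), and it was called with mice as a replicate block (1.04, adjusted p = 0.045; 9.95% of genes). The difference of *Ezh2* was 0.59 (SE 0.31, adjusted p = 0.30) and that of *Suz12* 0.47 (SE 0.50, adjusted p = 0.69), with 36 and 14 UMIs in low-cycle cells.

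Other definitions of cycle state gave calls. By Seurat phases the cycling cells were 564 proliferating and 35 differentiating by cluster, and the low-cycle cells 92 and 482. With Seurat phases *Ezh2* was higher in cycling cells by 0.88 (SE 0.20, adjusted p = 0.0027) and *Rbbp7* by 1.26 (SE 0.24, adjusted p = 0.00060), 2 of the 6 members where 21.8% of genes were called. The wider split, with 499 cycling cells, 487 of them proliferating, and 434 low-cycle cells, 372 of them differentiating, added *Suz12*. Both splits are therefore close to the comparison of the classes above. *Ezh2* was higher by 0.86 (SE 0.21, adjusted p = 0.0033), *Rbbp7* by 1.29 (SE 0.24, adjusted p = 0.00032) and *Suz12* by 1.01 (SE 0.36, adjusted p = 0.044), 3 of 6 members where 24.9% of genes were called. *Rbbp4* was not called in that split, at 331 ± 22 CPM in cycling and 325 ± 54 CPM in low-cycle cells.

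Outside the lineage, 483 cells were cycling and 120 low-cycle. Interneuron progenitor-like cells made up 218 of the cycling and 5 of the low-cycle cells. They had the highest mean *Ezh2* of the named types (764 ± 159 CPM). Interneuron-like cells made up 111 of the cycling and 43 of the low-cycle cells. Cycle state and cell type were thus not separated here either. *Ezh2* was called as higher in cycling cells, 1 of 5 members tested where 10% of 1715 genes were called. It stood at 448, 493 and 601 CPM in cycling cells and 277, 188 and 195 CPM in low-cycle cells, a difference of 1.13 (SE 0.30, adjusted p = 0.029). The call was lost without any 1 of the 3 mice, with adjusted p from 0.096 to 0.33, and with DESeq2 (0.12). *Rbbp4* differed by 0.92 (SE 0.37, adjusted p = 0.18), *Suz12* by 0.88 (SE 0.58, adjusted p = 0.46) and *Rbbp7* by 0.17 (SE 0.31, adjusted p = 0.85). In the wider split *Ezh2* was higher by 1.58 (SE 0.27, adjusted p = 0.00042) and *Rbbp4* by 0.90 (SE 0.29, adjusted p = 0.039), 2 of 6 members where 16.3% of genes were called.

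Whether the members' levels differed between cycle states to a different extent in the lineage and outside it was tested in 1 fit. Cycle state went with cell class on both sides, so this contrast does not separate cycle state from cell makeup. None of the 5 members tested was called by edgeR, where 0.985% of 2335 genes were called, and none by DESeq2, with 0 at an unadjusted p under 0.05. The cycle difference in the lineage minus that outside it was -0.55 (SE 0.43, adjusted p = 0.71) for *Ezh2* and 0.87 (SE 0.48, adjusted p = 0.58) for *Rbbp7*.

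Among cycling cells alone, CGNP/CGN-like cells were compared with cells outside the lineage. None of the 5 members tested was called by edgeR or DESeq2, with 0 at an unadjusted p under 0.05, where 9.25% of genes were called. *Eed* was not among the 5, as it did not pass the filter on low counts. It stood at 16.3 to 35.7 CPM in cycling cells of the lineage (30 UMIs) and 48.6 to 75.6 CPM in those outside it (35 UMIs), without overlap. *Ezh2* stood at 587 ± 46 CPM in the lineage and 514 ± 78 CPM outside it, a difference of 0.14 (SE 0.23, adjusted p = 0.81), and *Rbbp7* at 386 ± 82 and 271 ± 20 CPM, a difference of 0.47 (SE 0.24, adjusted p = 0.31). Among low-cycle cells none of 5 was called either, by edgeR or DESeq2, with 0 at an unadjusted p under 0.05, where 8.69% of genes were called. There *Ezh2* differed by 0.70 (SE 0.36, adjusted p = 0.30) and *Rbbp4* by 0.55 (SE 0.42, adjusted p = 0.57). In the wider split, *Rbbp4* was higher in low-cycle cells of the lineage (325 ± 54 CPM) than in those outside it (182 ± 46 CPM), by 0.86 (SE 0.25, adjusted p = 0.020), which with *Eed* made 2 of 7 members where 13.8% of genes were called.

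Cycling CGNP/CGN-like cells were divided into 239 with more S phase UMIs and 453 with more G2/M phase UMIs. Of these, 39 and 98 were differentiating by cluster. None of the 5 members tested was called by edgeR or DESeq2, with 0 at an unadjusted p under 0.05, where 3.31% of 3024 genes were called. *Ezh2* stood at 620 ± 84 CPM in S-high and 564 ± 58 CPM in G2/M-high cells, a difference of 0.12 (SE 0.22, adjusted p = 0.98). *Rbbp7* stood at 452 ± 80 and 355 ± 87 CPM, a difference of 0.33 (SE 0.25, adjusted p = 0.89).

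**Figure D4:**
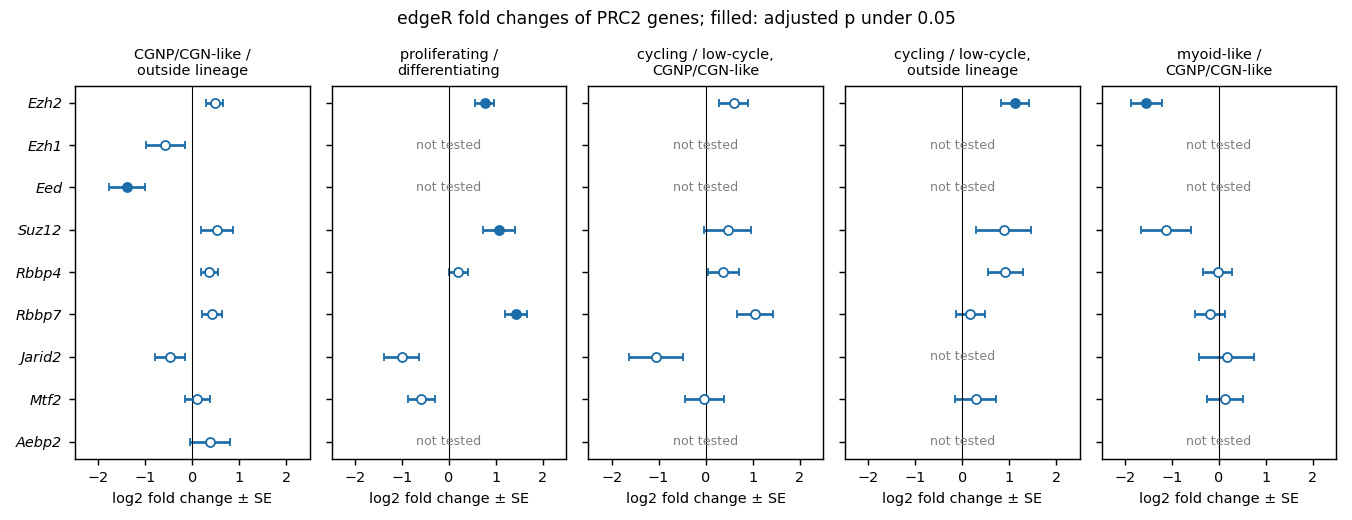
Fold changes of 9 members (rows; x axis, log2 with SE bars) in 5 comparisons, named above each panel as the first group over the second, with filled points for an adjusted p under 0.05. *Eed* is the member called between lineages (-1.39), *Ezh2*, *Suz12* and *Rbbp7* are called between proliferating and differentiating cells, and *Ezh2* is also called between cycling and low-cycle cells outside the lineage (1.13) and in myoid-like cells (-1.54).

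The 78 myoid-like cells carried muscle genes, with the myogenic factor gene *Myog* at 4288 ± 790 CPM against 28.2 ± 16.7 CPM in CGNP/CGN-like cells. *Ezh2* was low in them, at 172, 135 and 183 CPM from 7, 3 and 15 UMIs, and was lower than in CGNP/CGN-like cells by -1.54 (log2, SE 0.33, adjusted p = 0.00045), 1 of 6 members tested where 20.3% of 4542 genes were called. *Suz12* was at 123, 181 and 24.4 CPM from 11 UMIs and differed by -1.13 (SE 0.53, adjusted p = 0.14). *Rbbp4* (333 ± 102 CPM), *Rbbp7* (267 ± 48 CPM) and *Mtf2* (199 ± 150 CPM) were not called. Against cells outside the lineage *Ezh2* was lower too, by -1.12 (SE 0.33, adjusted p = 0.017), 1 of 5 members where 27.9% of 2801 genes were called, but not without any 1 of the mice (adjusted p from 0.051 to 0.083). These comparisons share the myoid-like cells, and *Mki67* stood at 24.5 ± 24.6 CPM in them, 622 ± 101 CPM in CGNP/CGN-like cells and 333 ± 45 CPM outside the lineage. *Hbb-bs* stood at 139 ± 55.8 CPM in the myoid-like cells. The part of cycling and of red cell RNA in the difference of *Ezh2* was not tested.

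The genes around PRC2 were taken from lists of the same pathway. Between lineages 12.9% of all 7592 genes tested were called, and the lists of 4 and 2 genes are too short to set against that share. Between lineages, none of 17 PRC1 genes tested, which encode the partner complex that ubiquitinates histone H2A, was called by edgeR or DESeq2, with 3 at an unadjusted p under 0.05 and *Bmi1* closest (0.78, SE 0.25, adjusted p = 0.056). None of 4 genes of the H3K27 demethylases and their partners was called by edgeR or DESeq2, with 0 at an unadjusted p under 0.05, and none of 16 genes of the other complexes that hold RBBP4 and RBBP7, with 1 at an unadjusted p under 0.05. Of 2 other PRC2 accessory genes tested, *Lcorl* was lower in the lineage by -1.03 (SE 0.26, adjusted p = 0.012). The median differences of these lists lay between -0.33 and 0.18, beside 0.020 over all genes.

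Genes that PRC2 is known to repress differed most. Of 9 listed, 7 were tested between lineages and 6 were higher in CGNP/CGN-like cells, where 12.9% of all genes were called, with a median of 3.76. *Cdkn2a*, an inhibitor of the cell cycle, stood at 230 ± 28 CPM in the lineage and 12.2 ± 2.4 CPM outside it (4.30, SE 0.31, adjusted p = 5.3e-08), and the homeobox genes *Hoxa9* (4.00), *Hoxc9* (3.96) and *Hoxa7* (3.47) were higher likewise. The study named several of these genes, *Cdkn2a*, *Hoxa9* and *Hoxa7* among them, on these samples, and the list was fixed with earlier results of these data known, so its direction is no independent evidence.

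Between proliferating and differentiating cells, 5 of 14 genes of the other complexes were called, where 28.1% of all genes were called. *Chaf1a* (2.71, SE 0.39, adjusted p = 2.7e-05) and *Chaf1b* (3.44, SE 0.64, adjusted p = 0.00045), of the CAF-1 chromatin assembly factor, and *Sap30* (1.42, SE 0.34, adjusted p = 0.0036), of the Sin3 complex, were higher in proliferating cells. *Chaf1b* held 60 UMIs in proliferating and 3 in differentiating cells, and *Chaf1a* 136 and 12, so the sizes of these differences rest on few UMIs. *Chd3*, a NuRD remodeller, was lower (-1.88, SE 0.25, adjusted p = 1.4e-05). The demethylase gene *Kdm6b* (-0.96, SE 0.26, adjusted p = 0.0086) and *Kmt2c* (-0.87, SE 0.29, adjusted p = 0.032) were lower too, 2 of 4 in their list, and DESeq2 called *Kdm6b* (adjusted p = 0.040) but not *Kmt2c* (adjusted p = 0.095). None of 8 PRC1 genes was called by edgeR or DESeq2, with 2 at an unadjusted p under 0.05, and none of the 2 other accessory genes, with 0. Of the genes known to be repressed by PRC2, 2 were higher and 4 lower of 7 tested, where DESeq2 called 5, with *Hoxa9* (-2.99), *Hoxa10* (-2.65), *Hoxa7* (-2.57) and *Hoxc9* (-2.46) lower in proliferating cells.

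In myoid-like cells against CGNP/CGN-like cells, 6 of 7 tested genes of the repressed list were called (5 by DESeq2), where 20.3% of all genes were called. The cell cycle inhibitors *Cdkn1c* (5.62, SE 0.26, adjusted p = 5.5e-19) and *Cdkn1a* (3.97, SE 0.26, adjusted p = 5.0e-15) were higher, and *Hoxa9* (-2.70) and *Hoxa7* (-1.86) lower. *Chaf1a* was lower (-2.77, SE 0.79, adjusted p = 0.0097), 1 of 12 in its list, from 2 UMIs in myoid-like cells. No tested PRC1 gene (4), demethylase or partner gene (3) or other accessory gene (1) was called by edgeR or DESeq2, with 0, 1 and 1 at an unadjusted p under 0.05.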

How the data were processed

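Part of the cerebellum of each of 3 Eed cKO mice was dissociated with papain and sequenced by Drop-seq, a droplet method that tags the 3′ end of transcripts. The authors deposited for each mouse 1 table of unnormalized UMI counts, with genes in lines and cell barcodes in columns, and the submitters' processing notes name STAR and the genome build mm10. Whether counting used strand is not given in the sources used here. No other per-sample column was left unused.

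Barcodes with at least 500 UMIs, at least 200 genes, UMIs and genes within 4 SD over their median and at most 10% mitochondrial UMIs were kept, which left 1003741, 540816 and 1536645 UMIs in mice 1, 2 and 3. The upper limits were the only treatment of doublets. Cells were clustered in R 4.3.3 with Seurat 5.3.0 and sctransform 0.4.2 (3000 variable genes, 15 principal components, resolution 0.8), without the members and the other genes of the lists reported. A cluster was named where it held at least 3 markers of a type, each found in 10% of cells or more and raised 2-fold or more against other cells after 20 CPM were added, more than of any other type, and where its 10 leading genes held no more markers of another type (the classes of the *Atoh1* lineage were not set against each other here). The cluster of 184 cells failed this last condition. This rule was set after the clusters were seen, so class names rest on rebuilt clusters. Cells thinned to 500 UMIs were cycling with at least 3 UMIs of 42 S and 52 G2/M phase genes and low-cycle with 0. This label counts list UMIs and does not show that a cell was dividing.

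Each mouse gave 1 sum of UMIs for a group. These sums entered the quasi-likelihood test of edgeR 4.0.16 (TMM, filterByExpr), p-values were adjusted by Benjamini and Hochberg over every gene in the fit, and an adjusted p under 0.05 was called. DESeq2 1.42.0 was an alternative. The others were RLE size factors, no filter on low counts, leaving out each mouse, a replicate block, resolutions 0.4 and 1.2, at least 1000 UMIs per cell, no upper limits, cycling from 2 or 4 list UMIs and Seurat phases. The subsets of cells outside the lineage and the wider cycle split were added after seeing the data. The edgeR step was tested on simulated counts with known changes. Both groups of a mouse come from 1 animal, and the correlation of their deviations from group means was 0.24, 0.18 and 0.36 for mice 1, 2 and 3 between lineages and at least 0.089 in every comparison. CPM values describe sums of few UMIs for several members, so counting error is part of the spread between mice.

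All 10 members are accounted for by symbol. Of other genes, at most 4 per list and comparison were named, those with the smallest adjusted p, and, for the 5 members that passed the low-count filter over cell types, the 3 genes of highest correlation. The members and lists were chosen with earlier results of these data known, and the list of genes repressed by PRC2 holds genes the study picked on these samples. Promoter windows are those of RefSeq on GRCm38.p6, and gene positions those of GENCODE M21.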

Additional observations from a re-analysis of the deposited data

Results flagged for a closer look

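The members were also present in cells that entered no comparison. The unnamed cluster of 184 cells held 385 of their UMIs, at 1389, 1365 and 1298 CPM for the 10 genes together in mice 1, 2 and 3. Its leading genes included *Syt4*, *Pcp4*, *Snhg11*, *Calb1* and *Meg3*. The 1108 barcodes left out by the filters held 839 of their UMIs, at 1422, 1619 and 1094 CPM, beside 1638, 1518 and 1475 CPM in the cells kept. The level in barcodes left out was lower than in kept cells in mice 1 and 3 and higher in mouse 2. These counts are listed because no comparison used these cells. No control samples were analysed here, and nothing is read from the counts being above 0.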

How the results depend on the processing

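The number of members called differed from the value reported in 37 of 146 refits, and by over 1.5 times, or to or from 0, in 28. Between lineages it was 1, and 0 to 1 when each mouse was left out in turn (7.57%, 8.99% and 11.7% of all genes called without mouse 1, 2 and 3), 4 with the replicate block (20.2%), 2 at resolution 0.4 (18.7%), 0 at 1000 UMIs per cell (10.3%) and 3 against glial, vascular and myeloid types only (28.9%). Between proliferating and differentiating cells it was 3, with 1 to 4 when each mouse was left out (17.3%, 17.2% and 24.3%), 5 with the replicate block (39.7%) and 1 at 1000 UMIs per cell (26.6%), and resolution 0.4 gave no value because no differentiating cluster was named. For cycle state in the lineage it was 0, with 2 without the filter on low counts (2.43%), 1 with the replicate block (9.95%), 2 with Seurat phases (21.8%) and 3 with the wider split (24.9%). Outside the lineage it was 1, with 0 when any mouse was left out (2.26%, 5.25% and 8.01%), 0 with DESeq2 (7.35%), 0 with cycling from 2 list UMIs (3.86%) and 2 with the wider split (16.3%). For lineages within low-cycle cells it was 0, with 1 by Seurat phases (13.2%) and 2 by the wider split (13.8%). In myoid-like cells it was 1 against CGNP/CGN-like cells, with 1 to 2 when a mouse was left out (15%, 14.3% and 12.3%), 2 without the filter (7.88%) and 2 at 1000 UMIs per cell (22.5%), and 1 against cells outside the lineage, with 0 when any mouse was left out (19.6%, 18.1% and 19.2%). Over the cell types it was 4, with 2 to 4 when a mouse was left out (64.1%, 62.7% and 69.6%), 3 with DESeq2 (75.5%), at resolution 0.4 (74.0%) and at 1000 UMIs per cell (67.5%), and 5 with the replicate block (83.3%), at resolution 1.2 (74.3%) and without the filter (34.2%). Of 486 refits of the 39 member values given in the text, 428 kept their direction and side of the threshold, 27 became called, 22 lost their call and 9 changed sign. Those 9 were *Rbbp4* (-0.10) and *Mtf2* (-0.27) between lineages against interneuron classes only, *Mtf2* when single mice were left out (-0.064 to 0.32), *Rbbp4* between proliferating and differentiating cells at 1000 UMIs (-0.020), *Ezh2* in the difference of cycle effects at resolution 0.4 (0.083), *Ezh2* between cycling cells of both lineages when single mice were left out (-0.032 to 0.31), at 1000 UMIs (-0.13) and in the wider split (-0.025), and *Ezh2* between S-high and G2/M-high cells when single mice were left out (-0.014 to 0.21). None of these 9 was called before or after. Another 23 member fold changes, not given in the text, had 309 refits, of which 42 changed sign and 0 became called. Where a mouse was left out or cells under 1000 UMIs were dropped, fewer libraries or UMIs entered the fit, and for the other settings the cause was not tested. The replicate block changed calls only by adding them, for *Ezh2*, *Suz12* and *Rbbp4* between lineages, *Jarid2* and *Mtf2* between proliferating and differentiating cells, *Rbbp7* for cycle state in the lineage and *Suz12* over the types. Few UMIs limit *Eed*, *Ezh1*, *Aebp2* and *Phf19*, which held 114, 108, 79 and 9 in all cells kept, and 3 mice without controls limit every comparison.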

Other observations

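The mice differed in some members over all kept cells. *Suz12* stood at 242, 116 and 99.6 CPM in mice 1, 2 and 3, and *Mtf2* at 162, 179 and 266 CPM. *Ezh2* (463, 420 and 407 CPM) and *Rbbp4* (302, 312 and 286 CPM) varied less. The libraries differ in cell makeup and depth, and their part in these values was not tested.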
